A study of Mus musculus with 28 samples.

Results

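Genes of prostaglandin synthesis, breakdown and reception were followed through the distal and the proximal colon of mice given AOM and DSS, a treatment that leads to inflammation and then tumours. The 5 genes were Ptgs1, Ptgs2, Ptges, Hpgd and Ptger4. They were found by symbol in the authors' table of comparisons (written there as PTGS1, PTGS2, PTGES, HPGD and PTGER4), where 9 probe sets carried these names, among 14123 named genes in all. For each gene the text uses its probe set of highest average level. All mice were female C57BL/6J. The treated mice received 10 mg/kg azoxymethane (AOM), which causes colon tumours in rodents, by injection into the peritoneum. Dextran sulfate sodium (DSS), a sulfated sugar polymer toxic to the gut epithelium, followed 96 hours later at 2.5% in the drinking water. Each DSS cycle lasted 5 days and was followed by 14 days of plain water. The late mice had 4 cycles and were killed on day 120 (late distal colon n = 6, late proximal colon n = 4). The early mice had 2 cycles and were killed on day 42 (early distal n = 3, early proximal n = 3). Untreated mice gave 6 distal and 6 proximal arrays. According to the labels, dysplasia was seen in the distal colon of treated mice, with intramucosal carcinoma in the late ones, and the proximal colon was unaffected. The labels give no age and do not say whether same-numbered distal and proximal samples come from 1 mouse. Each value is from pieces of whole tissue, so fewer cells of a type and less RNA per cell cannot be told apart.

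Prostaglandins are short-lived lipids made from arachidonic acid, which phospholipases cut from membranes. The cyclooxygenases Ptgs1 and Ptgs2 make the common precursor, and terminal synthases such as Ptges turn it into individual prostaglandins, in this case prostaglandin E2. Hpgd starts their breakdown by oxidation, and Ptger4 is a receptor for prostaglandin E2 that raises cyclic AMP. In the colon this system is known for its part in mucosal repair and in inflammation, and high Ptgs2 with low Hpgd has been described in human colorectal tumours.

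The promoters of the 3 members that changed in the late distal colon are shown here so that the genes that rose and the gene that fell can be set side by side. Each line holds 300 bases from RefSeq on GRCm38.p6, written 5′ to 3′ on the gene's strand, from 250 bases before the annotated start to 50 after it. Capitals mark every match, on either strand, to the motifs searched. Ptgs2 lies at chr1:150099781-150100080 on the plus strand, Ptges at chr2:30903248-30903547 on the minus strand and Hpgd at chr8:56294302-56294601 on the plus strand.
Ptgs2: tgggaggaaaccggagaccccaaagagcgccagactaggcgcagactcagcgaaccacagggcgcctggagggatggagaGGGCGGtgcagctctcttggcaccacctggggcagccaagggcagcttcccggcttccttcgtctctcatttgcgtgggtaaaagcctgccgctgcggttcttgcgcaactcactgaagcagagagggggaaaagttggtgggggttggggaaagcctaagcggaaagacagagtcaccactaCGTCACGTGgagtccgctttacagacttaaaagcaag
Ptges: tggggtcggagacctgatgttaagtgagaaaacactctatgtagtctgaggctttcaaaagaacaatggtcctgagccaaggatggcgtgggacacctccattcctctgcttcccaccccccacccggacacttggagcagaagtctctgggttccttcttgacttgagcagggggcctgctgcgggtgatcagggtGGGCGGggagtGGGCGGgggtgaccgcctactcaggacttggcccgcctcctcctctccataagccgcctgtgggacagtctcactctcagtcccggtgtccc
Hpgd: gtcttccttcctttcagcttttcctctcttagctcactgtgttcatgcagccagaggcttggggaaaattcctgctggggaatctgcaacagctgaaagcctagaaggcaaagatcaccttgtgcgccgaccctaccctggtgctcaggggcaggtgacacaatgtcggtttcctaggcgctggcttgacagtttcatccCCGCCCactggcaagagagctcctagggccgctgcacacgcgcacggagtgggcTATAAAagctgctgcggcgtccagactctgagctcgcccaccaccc

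The motifs were the TATA box TATAAA, the E-box CACGTG, the cyclic AMP response half-site CGTCA, the CCAAT box CCAAT, the GC box GGGCGG and the NF-kappaB consensus. Positions count from the annotated start, whose first base is 1. In Ptgs2, CGTCA (14 to 18) overlapped CACGTG (17 to 22), and a GC box stood at -170 to -165. The half-site was found in 20.8% and the E-box in 7.2% of the 32851 RefSeq promoters of the same length. Ptges held a pair of GC boxes, at -53 to -48 and -42 to -37, and Hpgd held 1 on the other strand at -50 to -45. A GC box occurred in 35.7% of all promoters. The TATAAA of Hpgd lay at 5 to 10, past the annotated start, and 13.6% of promoters held this motif. The Ptger4 window, not printed, held 4 GC boxes and the only CCAAT of the members (37.4% of all promoters), and the Ptgs1 window held none of the 6 motifs. No member window matched the NF-kappaB consensus, which 4.5% of promoters did. These matches describe letters in a window and say nothing of binding.

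Expression is given as the deposited log2 values, where 1 unit is a 2-fold difference. A gene is called where limma, a linear model over all arrays, gave an adjusted p under 0.05 over all 14123 genes. The 28 arrays had medians of 6.608 to 6.799, and the mean of 6 epithelial markers lay between 11.76 and 12.56 in all arrays. The posterior Hox gene Hoxd13, which marks the hind end of the body axis, checked the region labels. It read 11.05 to 12.20 in 14 of the 15 distal arrays and at most 7.52 in 12 of the 13 proximal ones. Untreated distal 3 (3.44) and untreated proximal 1 (11.37) had the other region's level, so results that use them were also computed without this pair. The 7.52 was in late proximal 3, and the others of these 12 read at most 4.51. Hoxb13, another posterior Hox gene, read 8.94 and 8.57 in late proximal 3 and 4. Apart from the pair, it read at most 6.18 in the other proximal arrays and at least 11.97 in distal ones. Late proximal 3 and 4 were left out singly, and their joint effect on late proximal results was not tested. The values of the 6 early arrays carry more decimals than those of the other 22, as means of several readings would, and no label says why. What this does to early values cannot be told apart from the early state.

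Ptgs2, the inducible cyclooxygenase, and Ptges, the inducible synthase of prostaglandin E2, rose in the late distal colon, while Hpgd, the enzyme that inactivates prostaglandins, fell. Ptgs1, the constitutive cyclooxygenase, and Ptger4 were not called there. The question put to the late distal colon was how the tissue that bore tumours differed from the untreated distal colon. Ptgs2 read 9.47 at the lowest, 9.93 at the median and 10.74 at the highest in late distal arrays, against 7.10, 7.47 and 8.52 log2 units in untreated distal arrays. Every late distal array lay above every untreated one. The means were 9.99 ± 0.41 (SD, n = 6) in late and 7.64 ± 0.54 (SD, n = 6) in untreated distal arrays. The difference was 2.36 ± 0.34 log2 units (SE), a 5.12-fold rise (limma adjusted p = 4.86e-06), and by its size it stood at rank 266 of the 14123 genes.

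Ptges read 9.22, 9.55 and 10.00 at the lowest, median and highest in late distal arrays and 8.15, 8.32 and 8.46 in untreated distal arrays. These groups did not overlap either, and the untreated arrays were close together (SD 0.12) while the late ones spread more (SD 0.29). The rise was 1.23 ± 0.22 (SE, 2.34-fold, limma adjusted p = 6.8e-05). The other probe sets of Ptges rose by 1.06 ± 0.20 and 1.24 ± 0.24 among all probe sets tested. Hpgd read 10.71, 11.32 and 11.88 at the lowest, median and highest in late distal arrays, against 12.33, 12.45 and 12.63 in untreated distal arrays. All late arrays lay below all untreated ones, and they were also more variable, with an SD of 0.48 in late and 0.10 in untreated distal arrays. The difference was -1.12 ± 0.18 (SE, 0.46 of the untreated level, limma adjusted p = 1.85e-05), and the other probe set of Hpgd gave -1.26 ± 0.18.

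Ptgs1 ranged from 9.23 to 9.71 (median 9.42) in late distal arrays, within the 8.96 to 9.98 (median 9.52) of untreated distal arrays. Its difference was -0.02 ± 0.18, with a 95% interval of -0.39 to 0.35 (limma adjusted p = 0.944). Ptger4 ranged from 7.90 to 8.23 (median 8.02) in late distal arrays and from 7.53 to 8.46 (median 7.70) in untreated distal arrays, which overlapped, and its difference of 0.19 ± 0.18 had an interval of -0.19 to 0.57 (limma adjusted p = 0.415). In this comparison 3 of the 5 members were called, against 48.5% of all genes, and 3 of 5 had no overlap between groups, against 23.6% of all genes. With nearly as large a share of all genes called, the count of calls says little about these members, and the description rests on their sizes. The authors' deposited table gives the same members at signed folds of untreated over late of -5.12 for Ptgs2, -2.34 for Ptges and 2.17 for Hpgd, with step-up p-values that it prints as 0.0000, 0.0002 and 0.0001. A minus sign there means higher in late mice.

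**Figure D1:**
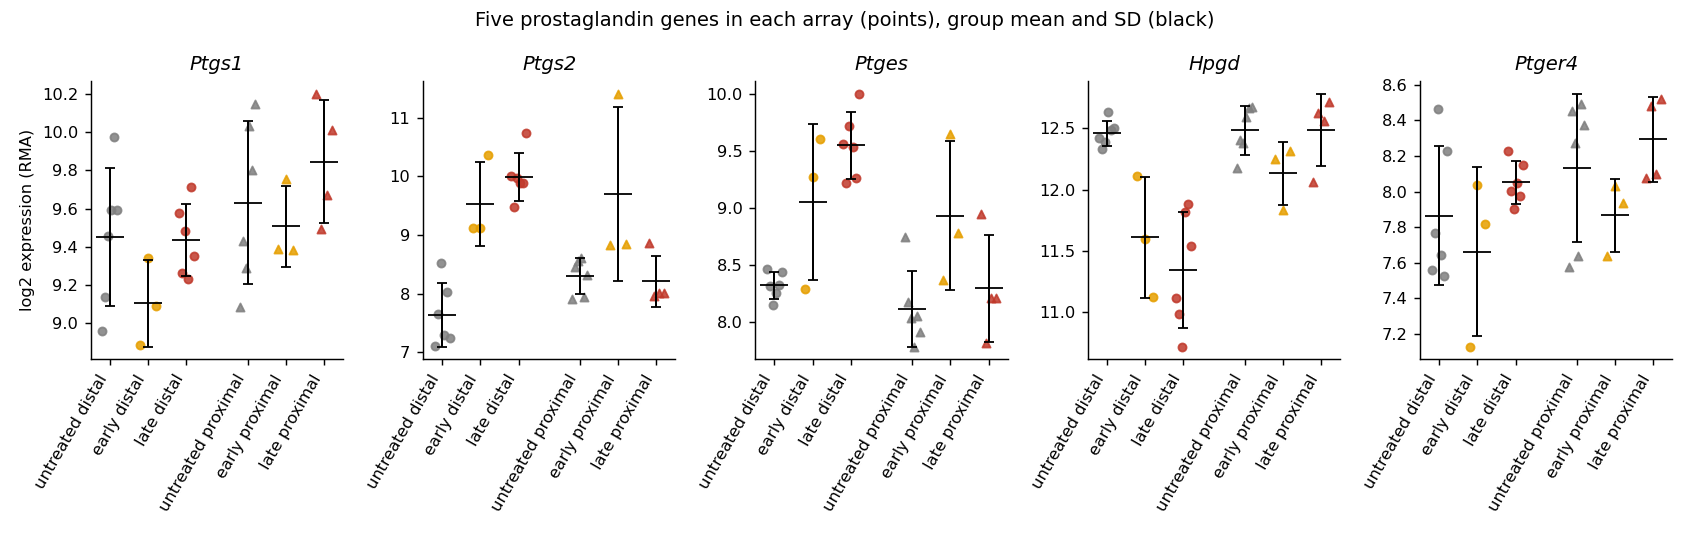
Log2 expression of the 5 genes in each array, with distal groups (circles) left of proximal groups (triangles) and black bars for the group mean ± SD. By group mean, Ptgs2 and Ptges are highest and Hpgd lowest in late distal arrays, and late proximal means differ from untreated proximal means by at most 0.21 log2 units.

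After 2 DSS cycles, in early distal against untreated distal arrays, Ptgs2 was already high and Hpgd already low. Ptgs2 stood at 9.12, 9.11 and 10.36 log2 units in early distal 1, 2 and 3, all above the untreated distal range of 7.10 to 8.52 (median 7.47). The rise of 1.90 ± 0.42 (SE) was called (limma adjusted p = 0.00334). Hpgd stood at 12.11, 11.59 and 11.13 in the same arrays, all below the untreated distal range of 12.33 to 12.63 (median 12.45). Its difference of -0.85 ± 0.22 was called (limma adjusted p = 0.0118). Early distal 3 thus had the highest Ptgs2 and the lowest Hpgd of its group. Without early distal 3 neither call held, with Ptgs2 at 1.48 (limma adjusted p = 0.0777) and Hpgd at -0.61 (adjusted p = 0.194), and without early distal 2 the Hpgd call ended (adjusted p = 0.056).

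Ptges read 8.29, 9.27 and 9.60 in early distal 1, 2 and 3, against 8.15 to 8.46 (median 8.32) in untreated distal arrays. Early distal 1 lay inside the untreated range and the other two above it. The difference of 0.73 ± 0.27 missed the threshold (limma adjusted p = 0.0836), and without early distal 1 it was 1.11 (limma adjusted p = 0.00626). Ptgs1 was not called, at 8.89, 9.34 and 9.09 in early distal arrays against 8.96 to 9.98 in untreated distal arrays (-0.35 ± 0.22, limma adjusted p = 0.367). Against untreated arrays 4 to 6 alone, which had the higher Ptgs1, it was called (-0.62, limma adjusted p = 0.0273). Ptger4 read 7.13, 8.04 and 7.82 in early distal arrays, around the untreated distal median of 7.70 (-0.20 ± 0.23, limma adjusted p = 0.656). Of the 5 members 2 were called, 1 higher and 1 lower, where 11.3% of all genes were called, 7.02% higher and 4.25% lower. No overlap between groups was seen for 2 members and for 10.2% of all genes.

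Late and early distal arrays were then set against each other. No member was called by limma (24.1% of all genes were), and none had an unadjusted p under 0.05 (5204 of the 14123 genes did). Each of the 5 overlapped between the groups (23.2% of all genes did not). Ptgs2 was 9.99 ± 0.41 (SD, n = 6) in late and 9.53 ± 0.72 (n = 3) in early distal arrays, a difference of 0.46 with a 95% interval of -0.40 to 1.32 (limma adjusted p = 0.44). Ptges differed by 0.50 (interval -0.06 to 1.05), Hpgd by -0.27 (-0.72 to 0.18), Ptgs1 by 0.33 (-0.12 to 0.78) and Ptger4 by 0.39 (-0.08 to 0.86). These intervals leave room for differences of up to 1.32 log2 units, so the comparison does not show that the members were alike at both times. The late and the early comparison share the untreated distal arrays, so their values stand side by side here and their likeness is no separate result.

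In the proximal colon, which the labels describe as unaffected, Ptgs2 was called higher in early mice and was not called in late ones, and the late and early proximal arrays did not differ by a called amount. Ptgs2 read 8.83, 11.41 and 8.84 in early proximal 1, 2 and 3, against 7.91 at the lowest, 8.38 at the median and 8.60 at the highest in untreated proximal arrays. All 3 early arrays were above the untreated range, but early proximal 2 stood over 2 log2 units above the others. The difference of 1.40 ± 0.42 was called (limma adjusted p = 0.0407), and without early proximal 2 it was 0.54 (limma adjusted p = 0.401). The call also ended when untreated proximal 1, 2, 3, 5 or 6 was left out, with adjusted p from 0.0504 to 0.0764 and differences of 1.32 to 1.45. The authors' deposited table gives Ptgs2 a signed fold of untreated over early proximal of -2.64. Its step-up p-value there is 0.0706, which is not under 0.05. In this comparison 1 of 5 members was called, against 7.59% of all genes, and 1 of 5 had no overlap, against 17.9% of all genes.

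Ptges read 8.37, 9.65 and 8.78 in early proximal arrays, against 7.79 to 8.74 (median 8.05) in untreated proximal arrays. The highest value was again in early proximal 2, and untreated proximal 1 held the highest untreated value. The difference of 0.81 ± 0.27 did not pass (limma adjusted p = 0.0634). It passed without untreated proximal 1 (0.94, limma adjusted p = 0.0263) and without early proximal 1 (1.1, adjusted p = 0.0284), and, with its size unchanged, without early distal 1 or late proximal 1 (0.0348 and 0.0421). Hpgd read 12.25, 11.84 and 12.32 in early proximal arrays, with the lowest value in early proximal 2, and 12.17 to 12.68 (median 12.50) in untreated proximal arrays (-0.35 ± 0.22, limma adjusted p = 0.317). Ptgs1 (-0.12 ± 0.22) and Ptger4 (-0.27 ± 0.23) were not called.

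None of the 5 members was called in the late proximal colon against the untreated proximal colon, where limma called 0.0212% of all genes and 2.54% had no overlap. At an unadjusted p under 0.05 the count of members was also 0, and that of all genes was 1193 of 14123. Ptgs2 read 8.86, 7.96, 8.01 and 8.0 in late proximal 1 to 4, against 7.91 to 8.60 (median 8.38) in untreated proximal arrays, a difference of -0.09 with an interval of -0.87 to 0.70. Ptges read 8.95, 7.82, 8.21 and 8.21 in the same arrays, against 7.79 to 8.74 in untreated proximal arrays (0.18, interval -0.33 to 0.68). Hpgd read 12.06, 12.62, 12.56 and 12.72, against 12.17 to 12.68 in untreated proximal arrays (0.01, interval -0.41 to 0.42). Late proximal 1 thus had the highest Ptgs2 and Ptges and the lowest Hpgd of its group. The intervals of Ptgs1 (0.21, -0.20 to 0.63) and Ptger4 (0.16, -0.27 to 0.59) also held 0. Between late and early proximal arrays no member was called either (0.666% of all genes were). An unadjusted p under 0.05 was found for 2 members and for 1993 of the 14123 genes. For 1 member, Ptger4, there was no overlap (15.1% of all genes). Ptgs2 differed by -1.48 ± 0.45 (limma adjusted p = 0.145), Ptges by -0.64 ± 0.29 (adjusted p = 0.329), Hpgd by 0.36 ± 0.24 (adjusted p = 0.49), Ptgs1 by 0.34 ± 0.24 (adjusted p = 0.517) and Ptger4 by 0.43 ± 0.24 (adjusted p = 0.424). The Ptgs2 difference was -0.63 without early proximal 2 (adjusted p = 0.514).

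The regions were compared within each treatment state. In late mice Ptgs2 was 1.78 ± 0.38 and Ptges 1.25 ± 0.25 log2 units higher in the distal than in the proximal colon (limma adjusted p = 0.000664 and 0.000274), and Hpgd was lower there by 1.15, with an SE of 0.20 (adjusted p = 7.94e-05). All 6 late distal arrays lay beyond all 4 late proximal arrays for each of these genes, which held for 31.4% of all genes, and 36.9% of genes were called. Ptgs1 (-0.41 ± 0.20, limma adjusted p = 0.114) and Ptger4 (-0.24 ± 0.21, adjusted p = 0.381) were not called. Ptgs1 was called with the replicate block (-0.54, limma adjusted p = 0.027) and, at the same size, where the model held only untreated arrays 1 to 3 (0.0404) or 4 to 6 (0.0322). In untreated mice limma called no member between the regions (9.80% of all genes were called and 0.828% had no overlap), and none in early mice (1.90% called). No member had an unadjusted p under 0.05 in untreated or early mice, where 3620 and 1802 of the 14123 genes did. In early mice Ptgs1 alone had no overlap, lying lower in distal arrays (18.0% of all genes had none). Ptgs2 was 7.64 ± 0.54 (SD, n = 6) in untreated distal and 8.30 ± 0.30 (n = 6) in untreated proximal arrays. This was a difference of -0.66 ± 0.34 (SE, limma adjusted p = 0.227). Of the arrays with the other region's Hoxd13 level, untreated distal 3 had the highest Ptgs2 of its group (8.515) and untreated proximal 1 the lowest (7.909). With array weights the Ptgs2 difference was -0.93 and was called (limma adjusted p = 0.00777). Ptger4 differed by -0.27 ± 0.18 as labelled, and by -0.50 ± 0.17 (limma adjusted p = 0.0363) without untreated proximal 1 and distal 3.

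Whether the response itself differed between the regions was tested with an interaction term, the late change in the distal colon minus that in the proximal colon. Ptgs2 (2.44 ± 0.51, limma adjusted p = 0.00168), Ptges (1.05 ± 0.33, adjusted p = 0.0268) and Hpgd (-1.12 ± 0.27, adjusted p = 0.00491) were called, with 19.4% of all genes. Each thus moved more in the distal than in the proximal colon of late mice. The proximal arrays used include late proximal 3 and 4, whose Hoxb13 lay between the levels of the regions. The Ptges call was the least steady. It ended without late proximal 2, 3 or 4 or late distal 6 (adjusted p from 0.0507 to 0.0754), without untreated proximal 1 and distal 3 (0.0546), with untreated arrays 1 to 3 alone (0.0598), and with its other probe sets (0.0523 and 0.0739). With untreated arrays 4 to 6 alone it was 0.83 (adjusted p = 0.185) and Hpgd was -1.04 (adjusted p = 0.0518). Ptgs1 (-0.23 ± 0.27) and Ptger4 (0.03 ± 0.28) were not called. For the early response limma called none of the 14123 genes as different between the regions. At an unadjusted p under 0.05 there were 501 genes and none of the 5 members.

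**Figure D2:**
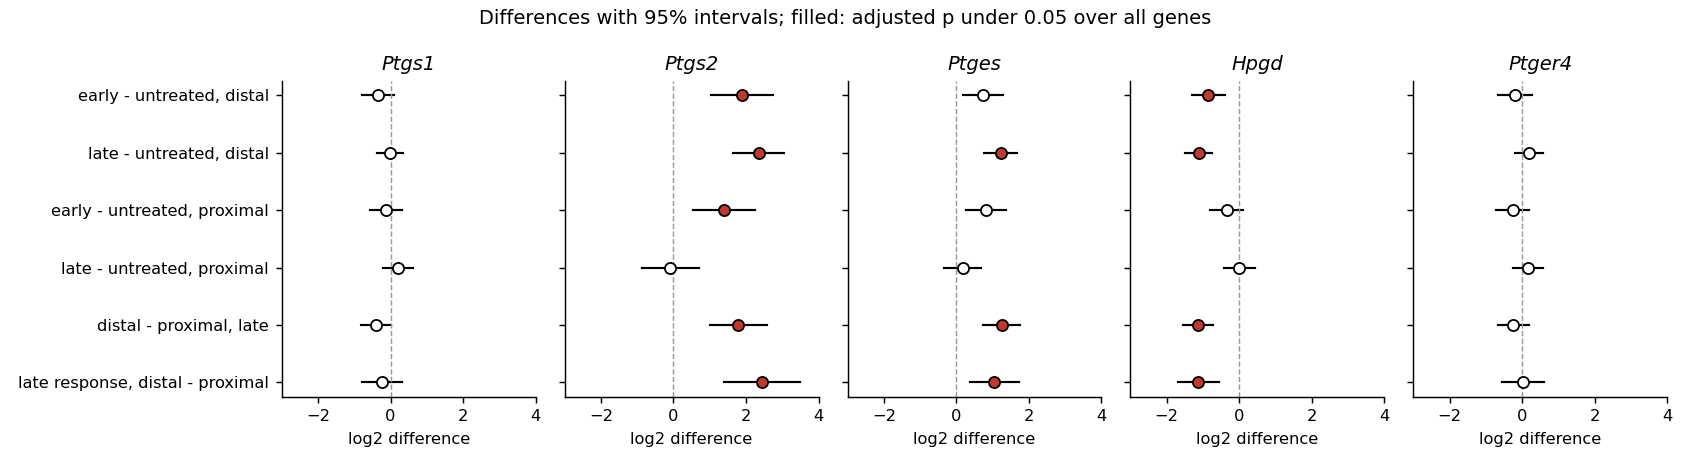
Log2 differences of the 5 genes in 6 comparisons with 95% intervals from limma, filled where the adjusted p over all genes was under 0.05. The late distal differences of Ptgs2 (2.36), Ptges (1.23) and Hpgd (-1.12) lie away from 0, and all 5 late proximal intervals include it.

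The order of the 6 groups differed between the members. For Ptgs2 the means descended from late distal (9.99) through early proximal (9.69) and early distal (9.53) to untreated proximal (8.30), late proximal (8.21) and untreated distal (7.64). The only neighbours in this order whose arrays did not overlap were early distal and untreated proximal. For Ptges the order was late distal (9.55), early distal (9.05), early proximal (8.93), untreated distal (8.32), late proximal (8.30) and untreated proximal (8.12), and no neighbours were free of overlap. For Hpgd the late proximal (12.49), untreated proximal (12.48) and untreated distal (12.46) means lay within 0.03 of each other, followed by early proximal (12.13), early distal (11.61) and late distal (11.34). The step from untreated distal (lowest 12.331) to early proximal (highest 12.316) had no overlap, by a narrow margin. This pair and the Ptgs2 pair differ in both region and treatment. The share of all genes without overlap in these pairs is not given here. Ptgs1 ran from 9.84 in late proximal to 9.11 in early distal arrays, Ptger4 from 8.29 in late proximal to 7.66 in early distal arrays, and their neighbouring groups all overlapped. Ptgs1 also split the untreated arrays. It read 8.96, 9.14 and 9.45 in untreated distal 1 to 3 and 9.59, 9.98 and 9.60 in untreated distal 4 to 6. In untreated proximal arrays it read 9.09, 9.43 and 9.29 in 1 to 3 and 10.03, 9.80 and 10.15 in 4 to 6. This was not particular to Ptgs1. In untreated distal arrays the macrophage and monocyte marker mean (markers below) read 8.083, 7.684 and 8.285 in 1 to 3 and 9.124, 9.051 and 8.812 in 4 to 6. The neutrophil mean there read 4.594, 4.588 and 4.846 against 5.163, 5.468 and 5.633. In untreated proximal arrays the macrophage mean overlapped between these sets (8.399, 8.318 and 8.618 against 8.665, 8.485 and 8.595). The neutrophil mean did not overlap there (5.016, 5.035 and 5.032 against 5.899, 5.751 and 5.174).

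**Figure D3:**
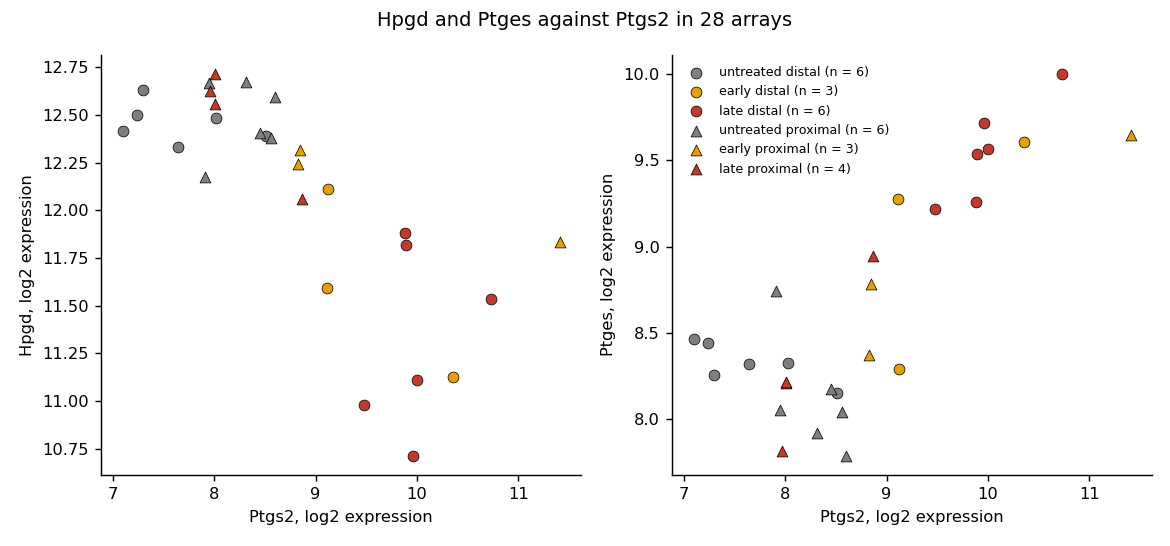
Hpgd (left) and Ptges (right) against Ptgs2 in each of the 28 arrays, in log2 units, coloured by treatment state, with distal arrays as circles and proximal arrays as triangles. The late distal arrays have Ptgs2 over 9.4 with Hpgd under 11.9, and early proximal 2, at 11.41, has the highest Ptgs2 of all arrays with Hpgd at 11.84.

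The genes whose levels followed each member most closely over the 28 arrays were found by Pearson's r, which here describes arrays that share groups and has no test. For Ptgs2 they were the cytokine Tnf (r = 0.921, Spearman's rho = 0.908), the costimulatory receptor Tnfrsf9 (r = 0.914, rho = 0.916) and Trem1, a receptor of neutrophils and monocytes (r = 0.913, rho = 0.87). For Ptges they were Sting1, the adaptor of cytosolic DNA sensing (r = 0.948, rho = 0.924), the growth factor Tgfb1 (r = 0.942, rho = 0.826) and Vav1, an exchange factor of blood cells (r = 0.94, rho = 0.925). The genes nearest to Hpgd included Ephx2, the soluble epoxide hydrolase that acts on other arachidonate products (r = 0.961, rho = 0.928), Fbxo25 (r = 0.96, rho = 0.908) and a gene that the authors' table calls C9orf125 (r = 0.962, rho = 0.955). Ptgs1 was nearest to Frmd6 (r = 0.886, rho = 0.92), Tmem204 (0.847 and 0.83) and Pdk4 (0.782 and 0.761). Ptger4 was nearest to Map2k4 (r = 0.861, rho = 0.829), Fbxo34 (0.855 and 0.843) and Pigq (0.846 and 0.841).

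Markers of other cells moved with the members. In late distal arrays all 8 measured neutrophil markers (of 10 listed) were higher than in untreated distal arrays, and their mean level was 8.84 to 9.89 log2 units in late, 8.02 to 9.98 in early and 4.59 to 5.63 in untreated distal arrays. The median level of probe sets outside the authors' table was 4.103. Of 11 macrophage and monocyte markers 9 were higher and 1 lower, with means of 9.44 to 9.58 in late and 7.68 to 9.12 in untreated distal arrays. Of 10 fibroblast markers 7 were higher and 1 lower, with means of 10.61 to 10.97 in late and 10.14 to 10.54 in untreated distal arrays. In early distal arrays 8 of 8 neutrophil and 9 of 11 macrophage markers were higher, and in early proximal arrays 6 of 8 and 7 of 11. Early proximal 2, the array with the highest Ptgs2, also had the highest neutrophil mean of the early proximal arrays, 9.87 against 7.78 and 8.33. In early distal 1, 2 and 3 the neutrophil mean was 8.02, 9.64 and 9.98. Ptgs2 read 9.12, 9.11 and 10.36 in these arrays, and Ptges 8.29, 9.27 and 9.60. In late proximal arrays the neutrophil mean was 5.35 to 6.30, against 5.02 to 5.90 in untreated proximal arrays, and none of the 8 markers was called. The part of these cells in the Ptgs2 and Ptges values was not tested.

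Of 7 smooth muscle markers 6 were lower in late distal arrays and 3 in early distal arrays, with means of 11.20 to 11.92 in late, 11.46 to 11.70 in early and 11.93 to 12.27 in untreated distal arrays. The mean of 4 measured pancreatic acinar markers (of 10 listed), which mark the exocrine pancreas, was high in single arrays. It was 10.66 in early distal 3, the array without which neither early distal call held, against 7.01 and 7.52 in early distal 1 and 2. It was also 12.75, 11.29 and 9.07 in late distal 2, 3 and 5, 11.72 in untreated distal 1 and 11.75 in untreated proximal 1, and at most 7.36 in the other arrays apart from early distal 2. None of the 4 markers was called between treated and untreated distal arrays, and the part of this tissue in the members' values was not tested.

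Absorptive colonocyte markers were lower in the late distal arrays, where Hpgd was lower. In late distal arrays 8 of 9 measured markers (of 10 listed) were lower, among them the water channel Aqp8 (-2.90) and the chloride exchanger Slc26a3 (-1.72), with a mean level of 9.10 to 10.56 in late and 11.39 to 12.35 in untreated distal arrays. General epithelial markers were 1 higher and 3 lower of 6, with means of 11.76 to 12.13 in late and 12.04 to 12.53 in untreated distal arrays. In early distal arrays 1 of the 9 colonocyte markers was called lower, with a mean level of 10.67 to 11.44. The part of these cells in the Hpgd value was not tested. Tuft cells and mast cells are known to carry Ptgs1. Of 6 tuft cell markers 1 was higher (Avil, 3.25) and 3 were lower (Dclk1 -1.23, Trpm5 -1.02 and Il25 -0.45) in late distal arrays, while 6 of 7 mast cell markers were higher and 1, Kit, was lower by 1.07. Ptgs1 was not called in the same arrays.

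**Figure D4:**
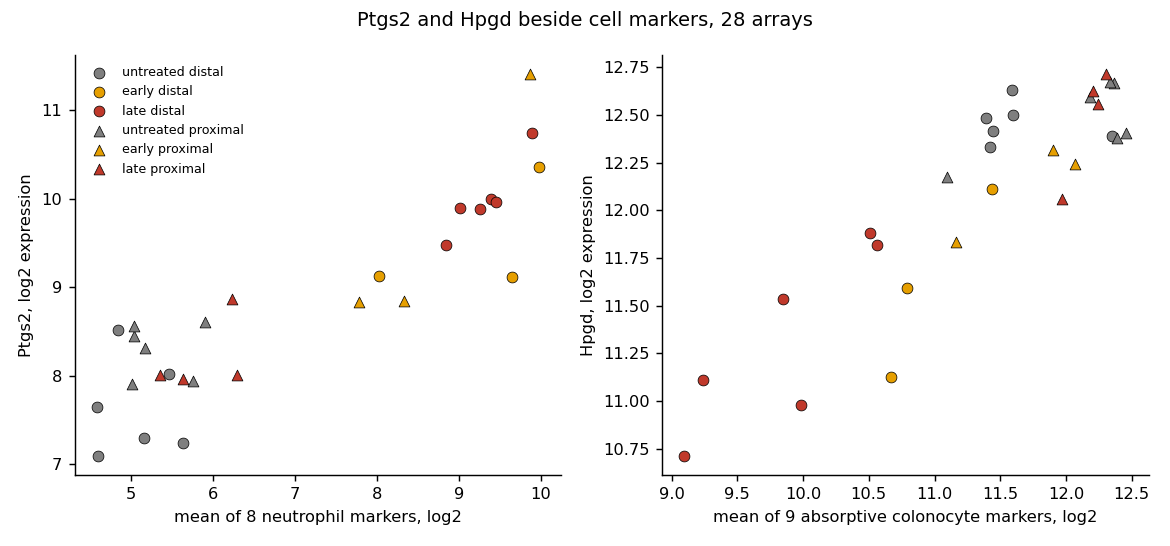
Ptgs2 against the mean of 8 neutrophil markers (left) and Hpgd against the mean of 9 absorptive colonocyte markers (right), in log2 units, for the 28 arrays. Late distal arrays have a neutrophil mean of 8.84 or more and a colonocyte mean of 10.56 or less, and late proximal arrays lie beside the untreated ones.

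Other genes of the pathway were read from lists of 38 genes, of which 33 were measured. In the late distal colon 11 were higher and 6 lower, with a median difference of -0.06, against 26.0% of all genes higher, 22.6% lower and a median of 0.00 over all genes. Among 6 genes of arachidonate release, Pla2g2a, a secreted phospholipase that this mouse strain is known to carry with a frameshift mutation, rose by 4.61 ± 0.53 (12.30 ± 0.29 SD in late and 7.69 ± 0.76 in untreated distal arrays, limma adjusted p = 1.67e-07). It had risen by 2.41 ± 0.65 in early distal arrays (limma adjusted p = 0.0144). Pla2g4a, the cytosolic phospholipase that feeds the cyclooxygenases, fell by 0.36, with an SE of 0.11 (adjusted p = 0.00911), and Plaa, a phospholipase-activating protein, rose by 0.56.

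Of 8 other prostaglandin synthases 2 rose and 1 fell in the late distal colon, where 26.0% of all genes were higher and 22.6% lower. Ptgds, which makes prostaglandin D2, was 7.37 ± 0.90 (SD, n = 6) in late and 4.49 ± 0.24 (n = 6) in untreated distal arrays, a rise of 2.88 ± 0.34 (SE, limma adjusted p = 2.47e-07). The untreated level is close to 4.103, the median of probe sets outside the authors' table, so this size is uncertain. The thromboxane synthase Tbxas1 rose by 0.65, and Cbr1, a reductase that can act on prostaglandin E2, fell by 0.78. Hpgds, the other prostaglandin D2 synthase, and Ptgis, the prostacyclin synthase, were not called (-0.25 and -0.39). The constitutive prostaglandin E synthases Ptges2 (-0.15) and Ptges3 (0.25) were not called either.

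All 4 measured genes of breakdown and transport changed in the late distal colon, where 48.5% of all genes were called. Slco2a1, the carrier that takes prostaglandins into cells for breakdown, fell by 1.33, with an SE of 0.19 (9.48 ± 0.36 SD in late and 10.81 ± 0.23 in untreated distal arrays, limma adjusted p = 4.72e-06). Abcc4, a pump that exports prostaglandins, rose by 2.01 ± 0.17 (10.67 ± 0.46 SD in late and 8.66 ± 0.27 in untreated distal arrays, limma adjusted p = 1.38e-09). The prostaglandin reductases that act after Hpgd went apart, with Ptgr1 higher by 1.03 and Ptgr2 lower by 0.62. None of these 4 was called in early distal arrays by limma, where their adjusted p ran from 0.0593 to 0.924. There 11.3% of all genes were called. The late response differed between the regions for each of these 4 genes, by -1.45 for Slco2a1, 1.79 for Abcc4, 1.06 for Ptgr1 and -0.50 for Ptgr2. This interaction was called for 19.4% of all genes.

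Among 7 other prostanoid receptor genes, Ptger3, a receptor for prostaglandin E2 that lowers cyclic AMP, fell by 1.44, with an SE of 0.22, in the late distal colon (7.28 ± 0.46 SD in late and 8.72 ± 0.49 in untreated distal arrays, limma adjusted p = 1.03e-05). Ptgfrn, a partner protein of the prostaglandin F receptor, rose by 0.21 ± 0.08 (adjusted p = 0.0404). The receptors Ptger1 (-0.20), Ptger2 (0.17), Ptgir (0.29), Ptgfr (-0.66) and Tbxa2r (-0.18) were not called. In early distal arrays 4 of the 33 pathway genes were higher and none lower (7.02% and 4.25% of all genes). None of the 4 was a prostanoid receptor. Of the untreated regions, the distal colon had 5 pathway genes higher than the proximal colon, Pla2g5 (1.92), Ptger3 (0.90), Hpgds (0.84), Akr1b3 (0.46) and Alox15, and none lower. Of all 14123 genes 603 were higher and 781 lower in this comparison. Alox15 averaged 5.76 ± 0.61 in untreated distal and 4.33 ± 0.54 in untreated proximal arrays (SD, n = 6 each), and the proximal level is close to 4.103, so the size of its differences from untreated proximal arrays is uncertain. The count of pathway genes called between the untreated regions was 11 without untreated proximal 1 and distal 3. In early proximal arrays Alox5ap (1.71) and Alox15 (5.97 ± 0.64, SD, n = 3) were higher and Ptges2 was lower (-0.69) than in untreated proximal arrays. Of all genes 7.59% were called in that comparison. None of the 33 was called there without early proximal 2. In the late proximal colon none of the 33 was called by limma, where only 0.0212% of all genes were called. With array weights 6 of the 33 were called there, and 2 without untreated proximal 1 and distal 3. The shares of all genes called under these settings, and for the count of 11, are not given here.

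**Figure D5:**
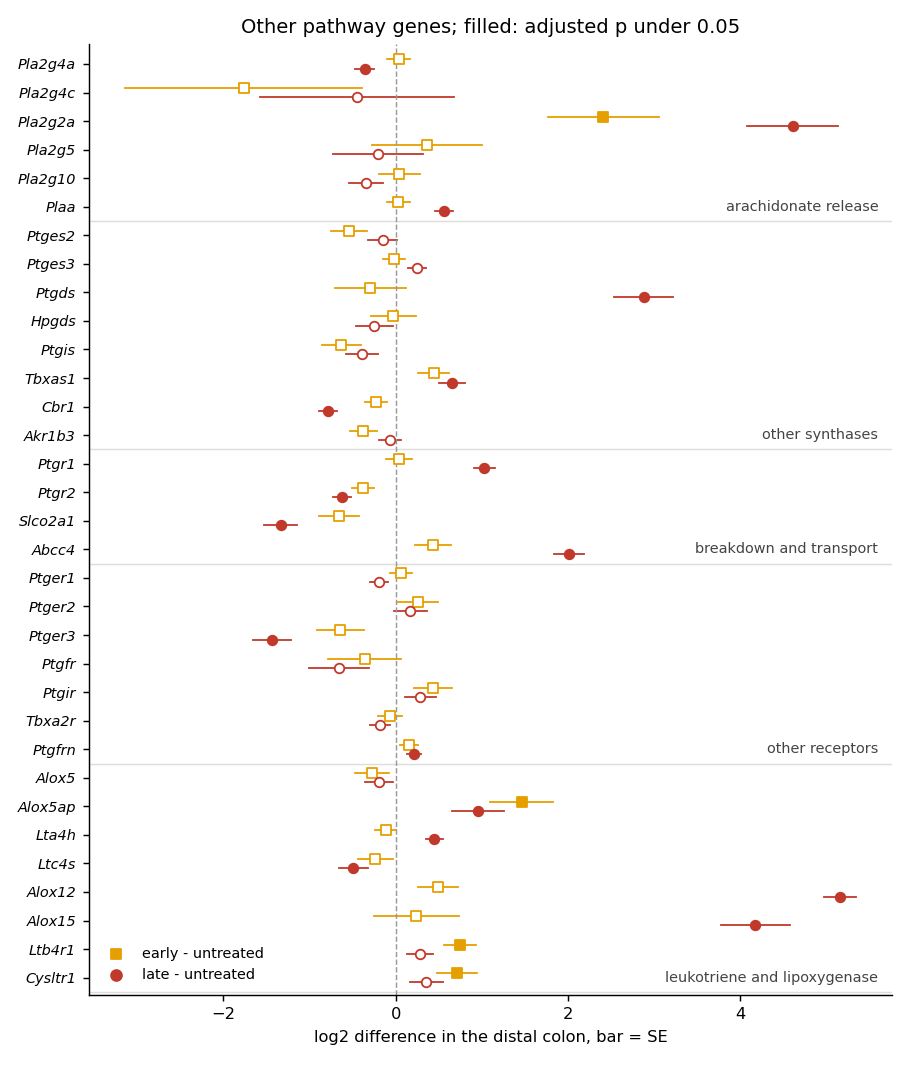
Log2 differences from the untreated distal colon (bar = SE) of 33 further pathway genes in early (squares) and late (circles) distal arrays, filled where called. In late arrays Pla2g2a (4.61), Ptgds (2.88) and Abcc4 (2.01) lie to the right, and Ptger3 (-1.44) and Slco2a1 (-1.33) to the left.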

How the data were processed

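RNA from the colon of female mice was measured on 28 arrays. Per the labels' protocols, RNA was extracted with Trizol, amplified with NuGEN Ovation kits and labelled with biotin, and the submitters' processing notes name RMA and Partek 6.5. The deposited values are log2 expression for 45101 probe sets. The authors' deposited table gives group means in log2 units, a signed fold change (a score, since ratios under 1 are written as negative inverses), and p-values with step-up adjusted p-values for 26933 probe sets. Its names were matched to mouse symbols or synonyms, leaving out 380 probe sets with several genes and 2720 without a name. The array type and the genome build behind it are not given in the sources used here.

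With limma 3.58.1 in R 4.3.3, all 28 arrays entered 1 linear model with 6 groups, no covariates and no further filter on low values. The degrees of freedom were 22 from the arrays and 3.78 from the prior. Calls are genes with a Benjamini-Hochberg adjusted p under 0.05, adjusted over 14123 genes within each of 11 comparisons. SE is the model's moderated standard error, SD describes the arrays within a group, and intervals are 95% intervals from the model. Nothing says whether arrays of a group came from separate experiments beyond the label of biological replicates, and precision is limited by how many arrays a group has. The members and lists were chosen with earlier results of these data known. Named genes were the members, the called and any other genes of the pathway lists, the 3 genes nearest to each member by Pearson's r and the first 2 or 3 measured markers of the cell lists, and Il25 and Kit were named after their values were seen. The fit was tested on simulated data. Equal replicate numbers were checked for pairing by the correlation of deviations from the group means. The result is given with the alternatives in the closing section. The alternatives were a replicate block, only the groups compared, array weights, median centring, repeated quantile normalization, the mean of a gene's probe sets, a filter at 5 log2 units, all probe sets, trend and robust variances, each set of 3 untreated arrays, the pair of arrays with the other region's Hox level left out, each array left out and the other probe sets of the members. Figures were made with Python 3.11.15 and matplotlib 3.10.9.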

Additional observations from a re-analysis of the deposited data

Results flagged for a closer look

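Ptgs2 in the late proximal colon stood out because 1 array, late proximal 1, read 8.865 log2 units and lay far from the 7.96 to 8.01 of the other 3. Of 20 groups of 4 to 6 arrays examined this way, it was the only one, and chance gives about 1 in 20. The same array had the highest Ptges (8.95) and the lowest Hpgd (12.06) of its group. Its neutrophil marker mean was 6.23, against 5.64, 6.30 and 5.35 in late proximal 2 to 4. It had the highest smooth muscle mean (12.42 against 11.86, 11.90 and 12.19) and endothelium mean (8.77 against 7.83, 7.88 and 7.94). Its absorptive colonocyte mean was the lowest (11.97 against 12.21, 12.24 and 12.30). The part of these cells in the values of this array was not tested. The late response differed between distal and proximal colon, tested with an interaction term, for Ptgs2 (2.44), Ptges (1.05) and Hpgd (-1.12). In late proximal arrays the differences of these genes from untreated proximal arrays were -0.09, 0.18 and 0.01.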

How the results depend on the processing

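In the late distal colon 3 members were called under every alternative run, and between the regions of late mice 3, or 4 with Ptgs1 (with the replicate block and with untreated arrays 1 to 3 or 4 to 6 alone). For the early distal colon (2 called) it was 1 with the replicate block, 0 with untreated arrays 1 to 3 alone, 3 with array weights (Ptges added, 1.09, adjusted p = 0.000368), 3 with untreated arrays 4 to 6 alone (Ptgs1 added, -0.62), and 0 to 3 leaving out single arrays. For the early proximal colon (1 called) it was 0 with the replicate block, with only the groups compared, with all probe sets tested and with untreated arrays 1 to 3 alone, 3 with array weights, 2 without untreated proximal 1 and distal 3, and 0 to 2 leaving out single arrays. With untreated arrays 4 to 6 alone it was 1, but Ptgs2 was lost (1.41, adjusted p = 0.0702) and Ptges was called (1.01, adjusted p = 0.0459). For the late interaction (3 called) it was 1 with untreated arrays 4 to 6 alone, and 2 with arrays 1 to 3 alone (Ptges 1.26, adjusted p = 0.0598). Where no member was called, array weights called 2 between late and early proximal arrays, 2 between untreated regions and 1 between early regions. Leaving out untreated proximal 1 and distal 3 called 1 between untreated regions. How many of all genes were called under each alternative is not given here, so these counts are no result about the members alone. With the replicate block the early difference was -0.64 for Hpgd in the distal colon (adjusted p = 0.0557) and 1.40 for Ptgs2 in the proximal colon (adjusted p = 0.111). Deviations of same-numbered arrays from their group means correlated between -0.543 and 0.691, in no comparison above 0.1 in every pair, so pairing was not assumed. Between the regions the highest were 0.691 and 0.55 (early 1 and 2) and 0.585 and 0.495 (untreated 1 and 3). Untreated pairs 1 and 3 each hold an array with the other region's Hoxd13 level (proximal 1 and distal 3). The other untreated pairs lay between -0.007 and 0.093. Whether the high values come from a shared mouse, or in untreated mice from those arrays, was not tested.

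Only differences that were not called changed sign. Late against untreated distal Ptgs1 was 0.0195 with the mean of its probe sets, 0.0563 with its other probe set, 0.25 with untreated arrays 1 to 3 alone and -0.12 to 0.0871 leaving out single arrays. Ptger4 in the early distal colon ran from -0.39 to 0.0646 leaving out single arrays. With array weights late minus early distal was -0.0139 for Ptgs2 and 0.17 for Hpgd, and late proximal Ptger4 was -0.0363. Late proximal Ptgs1 was -0.15 with untreated arrays 4 to 6, Ptges -0.0234 with 1 to 3 and -0.0396 to 0.34 leaving out single arrays, and Hpgd -0.0333 with median centring, -0.16 with untreated arrays 4 to 6, -0.0564 without untreated proximal 1 and distal 3 and -0.0702 to 0.15 leaving out single arrays. Early proximal Ptgs1 was 0.0799 with the replicate block and 0.24 with untreated arrays 1 to 3. The late interaction of Ptger4 was -0.0273 with the replicate block, -0.0581 with median centring, -0.0167 with repeated quantile normalization, -0.0747 with untreated arrays 1 to 3 and -0.0456 to 0.15 leaving out single arrays. The cause was not tested.

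The other pathway genes called in the late distal colon numbered 17, and 16 to 19 leaving out single arrays. In the early distal colon they numbered 4, and 0 to 7 leaving out single arrays, 2 with the replicate block, 16 with array weights and 8 with untreated arrays 4 to 6 alone or without untreated proximal 1 and distal 3. The shares of all genes called under these settings are not given here, so the counts are no result about the pathway alone. Groups of 3 arrays and probe sets near 4.103 log2 units limit what can be resolved.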

Other observations

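The lipoxygenase branch, which uses the same arachidonic acid, was read from 8 measured genes. In the late distal colon 4 rose and 1 fell (26.0% and 22.6% of all genes), and in the early distal colon 3 rose (7.02% of all genes). Alox12, a lipoxygenase of platelets and skin, was 10.80 ± 0.44 (SD, n = 6) in late, 6.14 ± 0.40 (n = 3) in early and 5.65 ± 0.30 (n = 6) in untreated distal arrays, a late rise of 5.15 ± 0.19 (SE, limma adjusted p = 1.62e-16). The mean of 3 measured platelet markers (of 6 listed) was 8.31 to 10.73 in late and 7.11 to 8.35 in untreated distal arrays. Of these markers 1 was called higher and 0 lower, with a median difference of 0.781. The part of platelets in the Alox12 value was not tested. Alox15, another lipoxygenase, rose by 4.17 ± 0.40 in late distal arrays (limma adjusted p = 1.11e-08) and was not called in early ones (0.24). Late distal arrays stood above early ones by 4.66 for Alox12 and 3.93 for Alox15, both called.

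The leukotriene genes kept another order. Alox5ap, the activating protein of leukotriene synthesis, rose by 1.46 ± 0.37 in early distal arrays (limma adjusted p = 0.00885) and by 0.96 ± 0.30 in late distal arrays (adjusted p = 0.0103). The leukotriene receptors Ltb4r1 (0.75) and Cysltr1 (0.71) were called in early and not in late distal arrays, but their late minus early differences (-0.47 and -0.36) were not called. Lta4h, which makes leukotriene B4, rose by 0.45, and Ltc4s, which makes leukotriene C4, fell by 0.49 in late distal arrays. Alox5 itself was not called in either (-0.19 late and -0.27 early).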
